A study of Mus musculus with 28 samples.

Results

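CHD4 binding was examined in unmodified NIH/3T3 Tet-On 3G cells, a mouse embryonic fibroblast line grown in medium with 10% serum, through 1 chromatin immunoprecipitation (ChIP) library made with an antibody to CHD4. The deposited region table holds 82893 genomic regions, and 2017 of them (2.43%) carried a CHD4 peak, meaning that some part of the region was covered by a peak of the CHD4 library. They were set against 28269 regions that carried a peak of HDAC1, HDAC2, MBD2/3, MTA1 or RBBP4 but no CHD4 peak, called other-subunit regions here. The other 5 subunit libraries and the libraries for the histone marks H3K27ac, H3K4me3 and H3K9ac came from the same unmodified, wild-type cells, with 1 library each. HA-tagged H3.3 was mapped in 2 replicates of cells carrying an HA/FLAG-H3.3 construct, cultured with the DNA polymerase inhibitor aphidicolin and 2 mg/ml doxycycline, so the H3.3 values came from modified, treated cells. RNA came from 3 H3.3 knockdown clones with the constructs OFP-H3.3A/GFP-H3.3B and from 2 control clones of wild-type genotype with the constructs GFP-Luciferase/OFP-Luciferase. The treatment label of both sets of clones gives FLAG/HA-H3.3 fibroblasts and 2 mg/ml doxycycline. Each clone is 1 cell line of its own, so the spread between clones holds clonal differences as well. MTA1 and RBBP4 were also mapped in H3.3 knockdown cells and in luciferase control cells with no treatment given, and a sequential ChIP against FLAG-H3.3 and then RBBP4 was made in the HA/FLAG-H3.3 cells with 2 mg/ml doxycycline, again with 1 library each. With 1 CHD4 library there was no replicate check of any CHD4 value, and the intervals given for shares of regions are exact 95% binomial intervals that cover counting error only.

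CHD4 is the ATP-driven remodelling enzyme of NuRD, a chromatin complex that also carries the histone deacetylases HDAC1 and HDAC2. In that complex the MTA proteins form the scaffold, RBBP4 and its paralog RBBP7 hold histones, and MBD2 or MBD3 completes the complex, with MBD2 binding methylated CpG. H3.3 is the histone H3 variant that is placed into chromatin outside DNA replication, and it is common at active promoters and enhancers.

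Promoters of 5 named genes are printed because they show the base composition that CHD4-bound starts shared with starts bound by other subunits and with expressed genes in general. Each run covers 150 bases before to 20 bases after the RefSeq start, 5′ to 3′ on the gene's strand, from the GRCm38.p6 table, and capitals mark CG dinucleotides. Gsk3a, Srf, Rbbp4 and Rps6 had a CHD4 region at their start, and Hdac2 had HDAC2 and RBBP4 peaks but no CHD4 peak.
Gsk3a: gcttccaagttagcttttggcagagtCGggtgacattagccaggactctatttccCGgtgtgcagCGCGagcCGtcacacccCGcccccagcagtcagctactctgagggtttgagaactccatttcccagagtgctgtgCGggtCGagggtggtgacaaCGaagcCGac
Srf: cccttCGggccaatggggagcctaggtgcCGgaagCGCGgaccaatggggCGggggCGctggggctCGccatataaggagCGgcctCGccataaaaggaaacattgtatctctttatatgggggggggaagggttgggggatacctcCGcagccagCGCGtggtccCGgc
Rbbp4: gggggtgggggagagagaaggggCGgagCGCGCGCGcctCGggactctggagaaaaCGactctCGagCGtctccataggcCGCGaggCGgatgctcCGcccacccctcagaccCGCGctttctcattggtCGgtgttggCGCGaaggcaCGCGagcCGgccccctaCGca
Rps6: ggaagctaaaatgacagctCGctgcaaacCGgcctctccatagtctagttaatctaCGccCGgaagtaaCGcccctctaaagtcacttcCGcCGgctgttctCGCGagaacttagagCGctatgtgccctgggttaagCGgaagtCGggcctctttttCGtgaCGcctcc
Hdac2: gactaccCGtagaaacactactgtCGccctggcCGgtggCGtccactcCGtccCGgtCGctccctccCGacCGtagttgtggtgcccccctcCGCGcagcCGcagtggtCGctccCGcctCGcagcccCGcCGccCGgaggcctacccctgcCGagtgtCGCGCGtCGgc

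These runs lie on the minus strand at chr7:25237832-25238001 (Gsk3a), chr17:46556143-46556312 (Srf), chr4:129335351-129335520 (Rbbp4) and chr4:86857348-86857517 (Rps6), and on the plus strand at chr10:36974394-36974563 (Hdac2). They held 10, 13, 22, 14 and 23 CG dinucleotides in that order of genes. All other coordinates are mm9, the build of the deposited files. The 2 builds are kept apart, so no peak is placed on these bases.

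The CHD4 peaks were narrow and the regions around them were wide. Within its regions CHD4 covered a median of 156 bp (interquartile range 143 to 191). MTA1 (200 bp), HDAC1 (241 bp) and MBD2/3 (259.5 bp) were nearest to it, so narrow peaks were not particular to CHD4. HDAC2 covered 450 bp, RBBP4 924 bp and the 2 H3.3 replicates 1440 and 1648 bp. Each was measured in the CHD4 regions that held that peak. The median CHD4 region was 1362 bp long, against 1111 bp for other-subunit regions; regions span the peaks of several libraries. The median fraction of a region covered by CHD4 was 0.137, and the lowest fraction among members was 0.0109. Depth limited single regions. The CHD4 library held an estimated 9.17 M reads and gave a median of 26 reads per CHD4 region. Of the 2017 regions, 342 (17.0%) had under 10. The other subunit libraries held 6.62 to 11.0 M reads, the H3.3 replicates 13.6 and 18.4 M reads and the mark libraries 20.6 to 24.1 M reads. All ChIP library sizes and read counts given here were estimated from the deposited levels.

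Most CHD4 regions held another subunit. Of the 2017 CHD4 regions, 1557 (77.2%, 75.3 to 79.0) held a peak of at least 1 other subunit and 61.97% held 2 or more. RBBP4 was the commonest partner, in 73.0% of CHD4 regions (71.0 to 74.9), followed by HDAC2 in 52.9% (50.6 to 55.0), HDAC1 in 35.7% (33.6 to 37.8), MBD2/3 in 21.1% (19.4 to 23.0) and MTA1 in 20.3% (18.5 to 22.1). The order followed the number of peaked regions per library for RBBP4 (25717), HDAC2 (11095) and HDAC1 (5238), whereas MBD2/3 (2629) came before MTA1 (3017), with overlapping intervals. In the other 460 (22.8%) CHD4 was alone, the largest single class. The commonest combinations with a partner were HDAC2 with RBBP4 (292 regions), RBBP4 as the only partner (247) and HDAC1, HDAC2 and RBBP4 together (226), and 108 CHD4 regions held all 5 other subunits.

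Read from the side of the partners, a CHD4 peak was most frequent where several subunits were found together. CHD4 was present in 16.2% of MBD2/3 regions (14.8 to 17.7), 13.7% of HDAC1 regions (12.8 to 14.7), 13.6% of MTA1 regions (12.4 to 14.8), 9.61% of HDAC2 regions (9.07 to 10.2) and 5.72% of RBBP4 regions (5.44 to 6.01). Sorted by how many of the other 5 subunits had a peak, the share of regions with CHD4 was 0.867% at 0 (460 of 53067), 1.70% at 1 (307 of 18070), 6.38% at 2 (459 of 7192), 12.4% at 3 (404 of 3247), 25.7% at 4 (279 of 1084) and 46.4% at 5 (108 of 233). From 1 to 5 the counting intervals of successive steps did not overlap. The share at 0 is not comparable, as such regions are in the table only through an H3.3 peak or the CHD4 peak itself. At 0, CHD4 was present in all 359 regions without an H3.3 peak and in 0.291% of those with H3.3 peaks in both replicates. Among CHD4 regions the median length moved the same way, with 152 bp at 0 other subunits, 1123 bp at 1 and 2486 bp at 5, and the part of length in this relation was not tested.

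**Figure D1:**
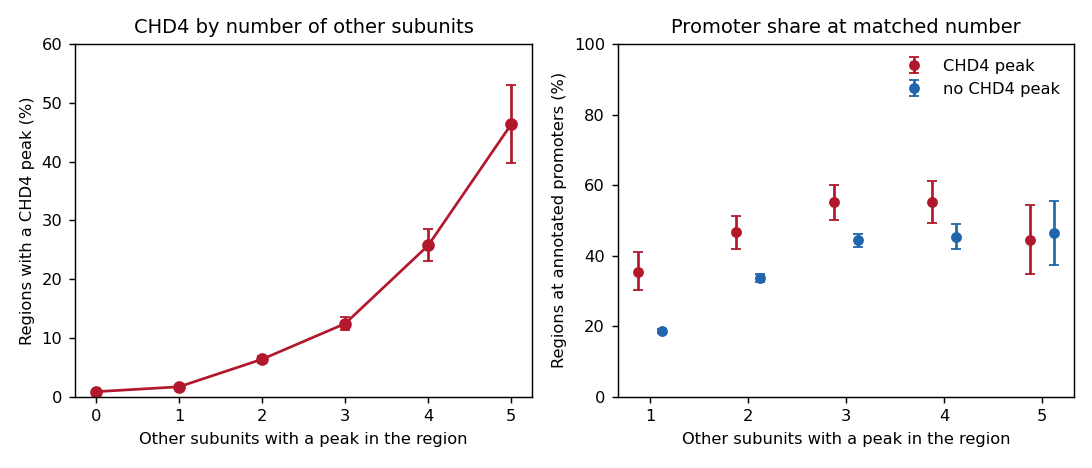
Left, percentage of regions with a CHD4 peak against the number of other subunits with a peak in the region, from 0.867% at 0 to 46.4% at 5. Regions at 0 are in the table only through an H3.3 peak or the CHD4 peak itself, so that point is not comparable with the others. Right, percentage of regions at annotated promoters with a CHD4 peak (red) and without one (blue) at the same number of other subunits, 35.5% against 18.5% at 1 and 44.4% against 46.4% at 5. Points are shares over regions and bars are exact 95% binomial intervals for counting error.

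The annotation of CHD4 regions leaned towards promoters. A region with an annotated 3 kb upstream or 5'UTR feature in the deposited table is called a promoter region here. Promoter regions made up 40.4% of CHD4 regions (815 of 2017, 38.3 to 42.6) against 25.6% of other-subunit regions (7250 of 28269, 25.1 to 26.2). Introns held 24.9% of CHD4 regions against 33.4% of other-subunit regions, unannotated DNA 23.4% against 31.0%, exons or 3'UTRs 5.85% against 4.40%, and the 5 kb downstream of genes 5.45% against 5.60%. The promoter share of CHD4 regions depended on the partners: it was 48.0% of CHD4 regions with another subunit and 14.6% of those with CHD4 alone. At 1, 2, 3 and 4 other subunits the promoter share was higher with CHD4 than without it, at 35.5% against 18.5%, 46.6% against 33.8%, 55.2% against 44.4% and 55.2% against 45.3%. At 5 it was 44.4% against 46.4%, and the intervals overlapped. Among CHD4 regions with at least 0.5 of their length covered the promoter share was 17.4%.

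Distance to the nearest annotated gene start gave the same order. Of the 1994 CHD4 regions with a measured distance, 36.4% overlapped a start, against 19.9% of 27540 other-subunit regions, and the median distances were 6492.5 bp and 16107 bp. Gene starts on chromosome 18 and the mitochondrial chromosome were not used here, so the other 23 CHD4 regions, 21 on chromosome 18 and 2 on the mitochondrial chromosome, have no distance, and chromosome 18 is missing from all results at gene starts. CHD4 regions with a partner overlapped a start in 46.0% of cases and CHD4 regions alone in 3.54%. Of 23951 gene symbols, 5244 had no placed start, on chromosome 18 and elsewhere. Distances can therefore be too long, and shares overlapping a start too low, in both sets.

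The mark of active promoters and both acetylation marks were more frequent in CHD4 regions. H3K4me3, which marks promoters of transcribed genes, had a peak in 71.0% of CHD4 regions (69.0 to 73.0) against 59.0% of other-subunit regions (58.4 to 59.5). H3K9ac, a mark of active promoters, had a peak in 60.1% (58.0 to 62.3) against 42.7% (42.1 to 43.2), and H3K27ac, a mark of active promoters and enhancers, in 50.7% (48.5 to 52.9) against 33.7% (33.1 to 34.2). All 3 marks met in 45.4% of CHD4 regions against 25.5% of other-subunit regions, and no mark peak was found in 25.9% against 35.3%. The regions without marks were largely those with CHD4 alone: 78.3% of these had no mark peak, against 10.5% of CHD4 regions with a partner. Among promoter regions, H3K4me3 was near its ceiling in both sets, at 96.0% with CHD4 against 93.0% without, while H3K27ac stood at 70.2% against 53.01%. The H3K27ac share was 8.92% of CHD4 regions where its peaks had to cover at least 50% of the region, and 32.2% where only peaks with a score of at least 100 were used. Outside promoters H3K27ac had a peak in 37.4% of CHD4 regions against 27.0% of other-subunit regions.

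At equal numbers of partners the acetylation marks still differed. With 1 other subunit, H3K27ac was found in 35.2% of regions with CHD4 against 21.7% without, and H3K9ac in 46.6% against 29.4%. With 3, H3K27ac was found in 73.5% against 62.7% and H3K9ac in 84.4% against 75.9%. With all 5, the shares were 79.6% against 84.0% for H3K27ac and 82.4% against 84.8% for H3K9ac, with overlapping intervals. All libraries were made from cell populations, so these shares do not show whether CHD4 and acetylated histones sat on the same DNA molecule. Median length was 1123 bp with CHD4 against 819 bp without at 1 partner, 1702.5 bp against 1748 bp at 3 and 2486 bp against 2284 bp at 5, and its part in these shares was not tested.

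**Figure D2:**
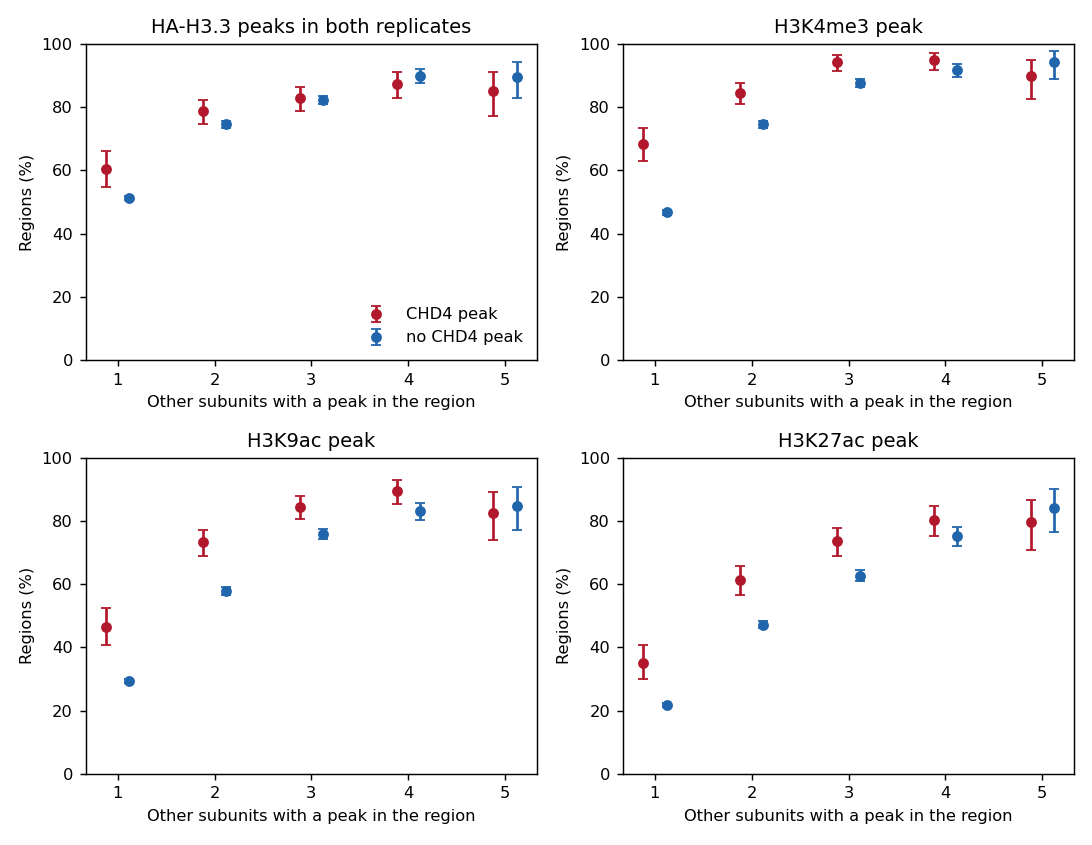
Percentage of regions with HA-H3.3 peaks in both replicates and with H3K4me3, H3K9ac and H3K27ac peaks, for regions with a CHD4 peak (red) and without one (blue), at 1 to 5 other subunits. Bars are exact 95% binomial intervals for counting error; at 1 partner H3K9ac stands at 46.6% against 29.4%, and at 5 partners the intervals overlap in all 4 panels.

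H3.3 differed little between all CHD4 regions and other-subunit regions, and more once CHD4 regions without a partner were left out. Peaks in both H3.3 replicates were found in 63.7% of CHD4 regions (61.6 to 65.8) against 61.2% of other-subunit regions (60.6 to 61.8). The median HA-H3.3 level, in log2(RPKM + 1), where RPKM is reads scaled by region length and library size, was 2.22 in CHD4 regions against 2.06 in other-subunit regions in replicate 1 and 2.20 against 2.098 in replicate 2. On the mean of both replicates the difference was 0.13, with an SD of 0.037 between the replicates. The CHD4 regions were of 2 kinds, as H3.3 peaks in both replicates were found in 78.2% of CHD4 regions with a partner and in 14.6% of those with CHD4 alone. Other-subunit regions hold a subunit by definition, and against them the CHD4 regions with a partner differed by 0.37 in level. CHD4 regions with at least 20 reads differed by 0.50, with H3.3 in both replicates in 89.3%. That minimum was set on the CHD4 regions only, while other-subunit regions had a median of 13 CHD4 reads. The 0.50 and 89.3% are therefore not a like comparison with them. Over all CHD4 regions the H3.3 difference was 0.26 at promoters and 0.061 elsewhere. Counting as CHD4 regions only the 420 with at least 0.5 of their length covered turned it to -1.12, and these were mostly regions with CHD4 alone.

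The H3.3 difference was smaller at higher numbers of partners, and at 4 and 5 it lay below 0 in replicate 1 and near 0 in replicate 2. In replicate 1 the median level with CHD4 minus without was 0.18 at 1 partner, 0.13 at 2, 0.054 at 3, -0.073 at 4 and -0.078 at 5, and in replicate 2 it was 0.14, 0.10, 0.053, -0.0054 and -0.0017. Both replicates, read over the same regions, gave the same sign at every number of partners. At 4 and 5 the values of replicate 2 were smaller than the SD of 0.037 between replicates for the difference over all CHD4 regions, so their sign carries little weight. Regions with CHD4 and 5 partners had median H3.3 levels of 2.81 and 2.68, against 2.88 and 2.68 without CHD4, and these medians were the highest of the 5 steps in both sets.

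The 460 regions with CHD4 alone were short and thinly covered. Their median length was 152 bp, and 359 of them had no H3.3 peak and were covered from end to end by the CHD4 peak that defines them. They had a median of 8 CHD4 reads, and 319 of 460 (69.3%) had under 10. Their median CHD4 level of 2.72 lay above the 1.63 of CHD4 regions with a partner, and this level is reads per kilobase over a short span. In the same regions the other subunits had median levels of 1.16 to 1.38, and H3.3 of 1.24 and 1.29. These regions were chosen by a CHD4 peak without another subunit peak, so a CHD4 level above the others follows from the choice. In the same way, MTA1-only regions had a median MTA1 level of 2.50 and a median CHD4 level of 1.16. Introns (35.4%) and unannotated DNA (37.6%) held most of them. Regions found by a single other subunit gave similar values for MTA1 and MBD2/3. The 748 MTA1-only regions had a median length of 154 bp, 10.0% at promoters and 77.9% without a mark peak, and the 799 MBD2/3-only regions 189 bp, 12.3% and 76.2%. The 685 HDAC1-only regions, with a median of 168 bp and 9 HDAC1 reads, were also short and thinly covered. So were the 1607 HDAC2-only regions, with 274 bp and 10 HDAC2 reads. The 13924 RBBP4-only regions were longer, at 980 bp, and 58.8% of them had H3.3 peaks in both replicates.

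**Figure D3:**
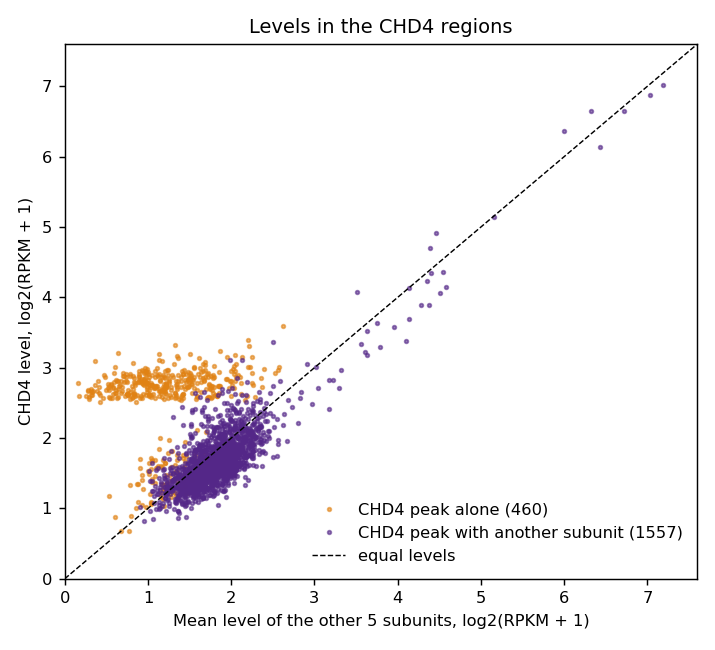
CHD4 level against the mean level of the other 5 subunits in the 2017 CHD4 regions, both in log2(RPKM + 1). The 460 regions with CHD4 alone (orange) sit mostly above the line of equal levels, with a median CHD4 level of 2.72. They were chosen by a CHD4 peak without another subunit peak, so their place above the line follows from that choice. The 1557 regions with a partner (purple) follow the line, up to a CHD4 level of 7.02.

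Within the 1557 CHD4 regions with a partner, the CHD4 level ran with the levels of the other subunits and against H3.3. Spearman's rho across regions was 0.64 with MBD2/3, 0.59 with MTA1, 0.59 with HDAC1, 0.53 with HDAC2 and 0.48 with RBBP4, and it was -0.38 and -0.43 with the 2 H3.3 replicates. In other-subunit regions without a CHD4 peak the same CHD4 levels gave -0.021 and -0.043 with H3.3, and over all 82893 regions 0.17 and 0.089. Within the 1557 regions rho was 0.30 with H3K4me3, 0.26 with H3K9ac and 0.20 with H3K27ac. These are descriptions across regions that share libraries, lengths and base composition. The sets were chosen by having or lacking a CHD4 peak, so their rho values with H3.3 are not a like comparison. Levels are also scaled by region length. In CHD4 regions H3.3 peaks covered a median of 1440 and 1648 bp and CHD4 peaks 156 bp. The part of length in the negative rho was not tested.

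The highest CHD4 levels lay in a few regions that were high in every subunit library. The top region, chr2:98506340-98507546 in unannotated DNA, had a CHD4 level of 7.02 (1422 reads) and a mean of 7.18 over the other 5 subunits, with H3.3 levels of 5.73 and 5.22. The second, chr9:35112684-35113247, had 6.88 for CHD4 and 7.02 for the others. The mitochondrial chromosome gave 2 of the top 10, with 4327 and 4828 CHD4 reads and an H3.3 level of 0 in both replicates. The region chr17:39979842-39985867, within Rn45s, the ribosomal RNA precursor, had 6.14 for CHD4 and 6.43 for the others. Rn45s is a multicopy gene, so its reads cannot be placed on 1 copy and its levels are uncertain. None of these 5 regions had an H3K27ac or H3K9ac peak, although the mark levels at the first 2 were 5.26 to 5.82. Of the 50 regions in the top 0.1% of all 6 subunit libraries, 25 held a CHD4 peak. The strongest regions without a CHD4 peak were of the same kind: chr9:3022055-3022275 had a CHD4 level of 6.10 (137 reads), against 6.18 for the mean of the others, and still carried no CHD4 peak in the table.

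Among promoter regions with at least 30 CHD4 reads, the CHD4 level exceeded the mean of the other 5 subunits most at Gsk3a, which encodes a glycogen synthase kinase. Its region, chr7:26022790-26023748, had 2.50 for CHD4 (41 reads) against 1.95 for the others, and MBD2/3, at 3.06, was higher still. Cbx5, which encodes the heterochromatin protein HP1 alpha, followed at chr15:103069645-103071266 with 2.25 (56 reads) against 1.89. A region 17575 bp from the start of Comtd1, chr14:22648730-22650557, had 1.54 (32 reads) against 1.18. The region at Stau1, an RNA-binding protein gene, chr2:166821813-166822655, had 2.32 against 1.99. Srf, the gene of serum response factor, had 1.89 (38 reads) against 1.63 at chr17:46693193-46694716. All 5 carried H3K4me3 and H3K9ac peaks. Except for Gsk3a, which had no H3.3 peak, they also had H3.3 peaks in both replicates. Among non-promoter regions, chr15:38531065-38532858 had 1.83 (42 reads) against 1.49 and carried all 3 marks. The 10 promoter regions of highest CHD4 level outside the most extreme regions were mostly short: 7 of them were under 200 bp, with 9 to 12 CHD4 reads each, such as chr11:120328837-120328972 at Arl16 (level 3.04, 9 reads).

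CHD4 regions were uneven across chromosomes. Chromosome 11 held 14.4% of CHD4 regions against 9.11% of other-subunit regions, chromosome 4 9.22% against 7.04%, chromosome 15 8.82% against 5.81% and chromosome 6 8.73% against 6.41%. Chromosome 7 held 2.28% against 5.32%, chromosome 13 1.74% against 3.64%, chromosome 14 1.54% against 2.89% and the X chromosome 0.248% against 0.916%. Chromosomes 4, 6, 11 and 15, grouped after their values were seen, held 41.2% of CHD4 regions (39.0 to 43.4), against 28.4% of other-subunit regions (27.8 to 28.9). The same 4 held 39.1% of MTA1 regions, 37.7% of MBD2/3 regions, 35.9% of HDAC1 regions, 32.1% of HDAC2 regions and 28.3% of RBBP4 regions, and 26.8% of all regions. In regions with no subunit peak, the median CHD4 level was also higher on these chromosomes, at 0.98 against 0.83 elsewhere. The other subunit libraries (differences of 0.11 to 0.15), H3K27ac (0.18) and H3K9ac (0.17) moved the same way. H3K4me3 (0.076) and H3.3 replicate 2 (0.071) did so by less, while H3.3 replicate 1 did not (-0.0023). The part of this general difference in level in the CHD4 shares was not tested. At 3 partners CHD4 was present in 15.6% of regions on these chromosomes (13.5 to 17.9), against 10.7% elsewhere (9.45 to 12.1). At 0 partners it was 1.42% (1.23 to 1.64) against 0.676% (0.597 to 0.762), and at 2 it was 8.10% (6.93 to 9.39) against 5.74% (5.12 to 6.40). At 1 partner (1.92% against 1.61%), at 4 (29.1% against 22.9%) and at 5 (48.5% against 43.7%) the intervals overlapped.

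**Figure D4:**
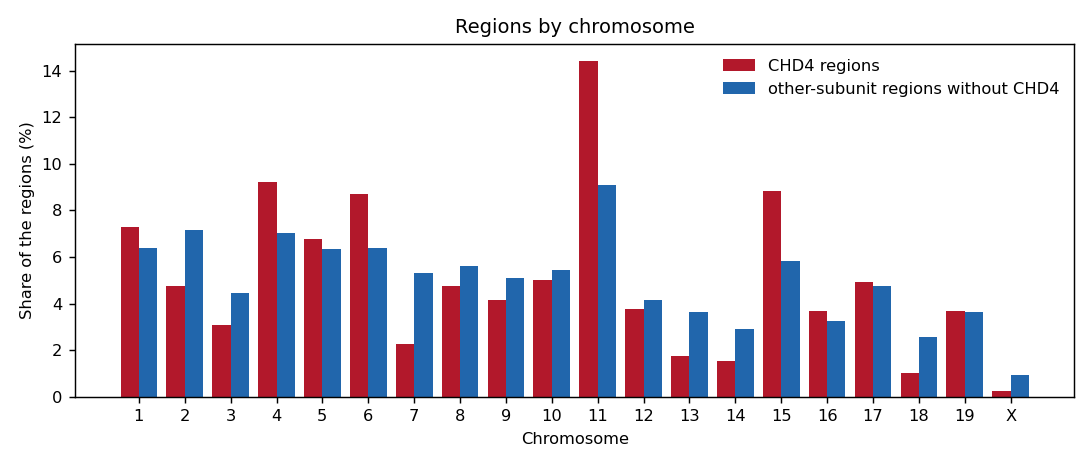
Share of the 2017 CHD4 regions (red) and of the 28269 other-subunit regions without CHD4 (blue) on each chromosome, in percent of each set; the mitochondrial chromosome is left out. The widest gap is on chromosome 11, with 14.4% against 9.11%.

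Peak lists from the other cell states met CHD4 regions in part. In H3.3 knockdown cells 108 of 904 MTA1 peaks (11.9%, 9.90 to 14.2) lay in CHD4 regions, against 76 of 1703 (4.46%, 3.53 to 5.55) in control cells. Taken over CHD4 regions, 5.26% held a knockdown MTA1 peak and 3.12% a control one, against 2.16% and 1.83% of other-subunit regions. For RBBP4, 251 of 2919 knockdown peaks (8.60%, 7.61 to 9.67) and 233 of 3561 control peaks (6.54%, 5.75 to 7.41) lay in CHD4 regions, which is 10.2% and 9.17% of CHD4 regions. Each state had 1 library, and the lists differ in length, so no change of binding is read from these counts. The sequential ChIP against FLAG-H3.3 and then RBBP4 gave 6 peaks in the authors' list. The one at chr4:116854887-116855221, with a fold enrichment of 10.2 in the authors' list, lay in a CHD4 region with all 5 other subunits, and the other 5 lay in regions without CHD4.

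Most genes with a CHD4 region at their start were expressed. Starts could be placed for 18707 gene symbols, and 975 of them (5.21%) had a CHD4 region within 1 kb of the start, while 7308 had another subunit and no CHD4. Expression is given in FPKM, fragments scaled by transcript length and library size, in the 2 control clones, and a gene with a mean of at least 1 is called expressed. In bulk RNA, fewer cells with a transcript and less of it per cell cannot be told apart. Of the 975 genes, 907 (93.0%, 91.2 to 94.5) were expressed, against 89.8% of genes with other subunits only (89.0 to 90.5), 53.5% of genes with only an H3.3 region and 11.9% of genes with no region at the start. Median FPKM in the control clones was 16.9 and 16.8 for genes with CHD4, against 12.9 and 12.6 for genes with other subunits only. Taken the other way, 9.84% of expressed genes (907 of 9215, 9.24 to 10.5) had a CHD4 region at the start, against 0.716% of genes that were not expressed (68 of 9492). In the mean of both clones the share was 7.49% at 1 to 10 FPKM, 11.3% at 10 to 100 and 12.2% above 100. Among genes bound by any subunit, CHD4 was present at 10.5%, 13.0% and 13.7% in the same 3 classes. The 13 fibroblast markers were checked against the label of the cells. Their median FPKM was 86.9 and 86.5 in the 2 control clones, with 1 marker at 0 in both. Medians were 0.0453 and 0.0465 for 17 haematopoietic, 0.0264 and 0.0249 for 13 epithelial and 0.0863 and 0.229 for 11 endothelial genes. For 18 neural genes they were 0 and 0.0152, and for 19 skeletal and cardiac muscle genes 0.0503 and 0.0563. Some members of these lists were expressed all the same. Among members with a placed start these were 6 of 14 muscle, 4 of 6 endothelial, 2 of 10 haematopoietic, 1 of 7 epithelial and 0 of 14 neural genes.

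The promoters of CHD4 genes had the CpG content of other subunit-bound promoters and of expressed genes in general. Over the 776 genes with CHD4 and a single RefSeq start, the window of 250 bases before to 50 after the start held a median of 22 CG dinucleotides and 60.7% G or C, against 23 and 62.0% for 5837 genes with other subunits only and 4 and 49.3% for 7497 genes with no region. The letters GGGCGG, read on both strands, as in all these counts, were found in 67.9% of CHD4 promoters, against 69.7% with other subunits only, and 46.1% of all 15006 promoters. CCGGAAG was found in 23.3% against 20.6% (11.9% of all), CCAAT in 41.6% against 39.7% (39.7% of all), TATAAA in 6.19% against 6.72% (13.8% of all), TGACTCA in 2.45% against 3.24% (4.78% of all), TGACGTCA in 2.84% against 3.68% (2.38% of all) and CACGTG in 10.7% against 10.8% (8.04% of all). No motif contains another, and each was counted once per promoter. Most of the difference from all promoters was absent among expressed genes. All 7230 promoters of expressed genes had medians of 22 CG and 61.3% G or C, with GGGCGG in 68.0% and CCGGAAG in 20.7%. The 724 promoters of expressed genes with CHD4 had 22, 60.7%, 68.5% and 23.9%. Of the runs printed above, those of Gsk3a, Srf, Rbbp4 and Hdac2 held the letters GGGCGG on either strand. Those of Srf and Rbbp4 held CCAAT, and those of Srf and Rps6 held CCGGAAG.

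CHD4 was present at the starts of 2 of the 11 NuRD subunit genes that could be placed. Rbbp4 had peaks of CHD4, HDAC1, HDAC2, MTA1 and RBBP4 over chr4:129011701-129013852, with a CHD4 level of 1.90 (54 reads). Cdk2ap1, the gene of a small NuRD subunit, had CHD4, HDAC1 and RBBP4 peaks over chr5:124800863-124803839, with a level of 1.36 (43 reads). The Chd4 gene itself had HDAC1, HDAC2 and RBBP4 peaks but no CHD4 peak, at a CHD4 level of 1.25 (48 reads). Hdac2, Mbd3, Mta1, Mta2, Rbbp7 and Gatad2a also had other subunits and no CHD4 peak, and Chd5 and Gatad2b had no region. Chd3, Hdac1, Mbd2 and Mta3 had no start in the table used. Chd4 stood at 67.6 and 58.3 FPKM in the 2 control clones. Of its paralogs, Chd3 stood at 32.7 and 31.2 FPKM and Chd5 at 0.144 and 0.368 FPKM in the same clones.

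Other gene lists held CHD4 at between 0 and 5 of their placed members. Among H3.3 genes and genes of H3.3 deposition 3 of 12 had it: Nasp, a histone H3-H4 chaperone (level 1.87, 56 reads), Daxx, an H3.3 chaperone (1.51, 55 reads), and Dek (1.39, 30 reads). Among AP-1 and immediate early genes 4 of 16 had it, namely the transcription factor genes Klf4 (2.58, 10 reads over 219 bp) and Srf, the phosphatase gene Dusp1 and the matrix protein gene Cyr61. Among cytosolic ribosomal protein genes 5 of 22 had it, led by Rps6 (2.37, 53 reads over chr4:86502740-86504122) and Rpl27 (2.35, 36 reads over chr11:101303231-101304189). Rpl23 (1.92, 25 reads), Rpl37 (1.90, 36 reads) and Rplp0 (1.81, 24 reads) were the rest. Ribosomal protein genes have many processed pseudogenes, and how shared reads were counted is not stated, so their levels are uncertain. The count was 2 of 18 for actin and contractile genes (Zyx and Myh9), 2 of 23 for cell cycle and replication genes (Cdk2 and Rrm2), 1 of 15 for glycolysis genes (Pfkl) and 1 of 8 for fibroblast markers (S100a4). It was 0 of 13 for fibroblast extracellular matrix genes, all 13 of which were expressed and 11 of which had other subunits, 0 of 11 for p53 targets, 0 of 19 for Hox genes and 0 of 17 for replication-coupled histone genes. Neural (14), muscle (14), haematopoietic (10), epithelial (7), endothelial (6) and liver or gut genes (10) had 0 as well. Against the 9.84% of all expressed genes, lists of this size give few members either way, and no list is called particular.

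The H3.3 knockdown was read at the genes with CHD4 at their start, with the H3.3 genes first. H3f3a had 71.8, 35.6 and 5.05 FPKM in the knockdown clones 1 to 3, against 128 and 143 in the control clones. H3f3b had 144, 104 and 51.7 FPKM in the knockdown clones, against 249 and 237 in the control clones. Every knockdown clone was below both control clones for each gene, and the knockdown clones differed widely among themselves. Clone values that did not overlap between the groups, in either direction, were found for 32.6% of all 11728 genes tested. On the log2(FPKM + 1) scale H3f3a differed by -2.44 ± 1.04 (SE) with a limma adjusted p of 0.516. H3f3b differed by -1.39 ± 0.45 (SE) with a limma adjusted p of 0.469. Neither passed the threshold of 0.05.

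No gene with CHD4 at its start passed that threshold. Of the 975 genes, 915 had a mean of at least 1 FPKM over the 5 clones and were tested, and 60 were not. Over all 11728 genes tested, 4 (0.0341%) were called at an adjusted p under 0.05, all of them microRNA or small nucleolar RNA genes. None of the 4 was among the 915, and 2 of them had no start in the table used. The count of 4 rested on single clones, being 18, 14 and 8 without knockdown clone 1, 2 and 3, and 30 and 28 without control clone 1 and 2. Without control clone 1 the calls included 1 microRNA gene with CHD4 at its start, Mir7671. At an unadjusted p under 0.05, 40 of the 915 were higher in the knockdown (4.37%) and 45 lower (4.92%), against 3.5% and 6.31% of all genes tested. Both shares lie near the background. The split depended on the scaling, with 47 higher and 28 lower after quantile normalization, which moved the median of all genes to -0.0065. The median log2 difference was -0.095 for genes with CHD4, -0.11 for genes with other subunits only and -0.098 for all genes tested, and 38.9% of genes with CHD4 were higher in the knockdown against 40.1% of all.

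The genes of smallest p among those with CHD4 are described although none was called. On the higher side, Cd164, a sialomucin gene, had 105, 92.3 and 71.5 FPKM in the knockdown clones, against 20.9 and 23.0 in the control clones. Its log2 difference was 1.96 ± 0.23 (SE), with an adjusted p of 0.219 by limma. Mdh1, the cytosolic malate dehydrogenase gene, had 68.0, 106 and 119 FPKM in the knockdown clones, against 30.0 and 32.0 in the control clones, a log2 difference of 1.59 ± 0.29. Mpc2, a subunit gene of the mitochondrial pyruvate carrier, had 36.5, 33.6 and 25.4 FPKM in the knockdown clones, against 13.3 and 13.2 in the control clones. The groups did not overlap for any of these genes, which follows from choosing them by p. The others on this side were Smim11 (1.25), Lxn (1.42), Gamt (1.47), 4930539J05Rik (1.19) and Hint3 (1.08), given as log2 differences, with adjusted p of 0.329 to 0.414 by limma.

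On the lower side, Ifrd2 had 4.24, 7.72 and 7.06 FPKM in the knockdown clones, against 49.3 and 28.2 in the control clones. Its log2 difference was -2.42 ± 0.35 (SE), with an adjusted p of 0.292 by limma. The region at its start, chr9:107489683-107490617, had a CHD4 level of 2.24 (32 reads) with HDAC1, HDAC2, MBD2/3 and RBBP4 peaks, and did not have H3.3 peaks in both replicates. Ctsl, the cathepsin L gene, had 172, 243 and 165 FPKM in the knockdown clones, against 342 and 608 in the control clones, and its CHD4 region was a lone peak of 146 bp with 7 reads. Adora2b, an adenosine receptor gene, had 6.85, 8.24 and 6.23 FPKM in the knockdown clones, against 11.5 and 12.7 in the control clones. Specc1 (-1.25), Rnf157 (-0.74), Tmem120a (-0.88), Gmpr2 (-0.67) and Wsb2 (-0.96) made up the rest, given as log2 differences, with adjusted p of 0.434 to 0.451 by limma. The groups did not overlap for any of the 8 genes, which follows from choosing them by p.

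**Figure D5:**
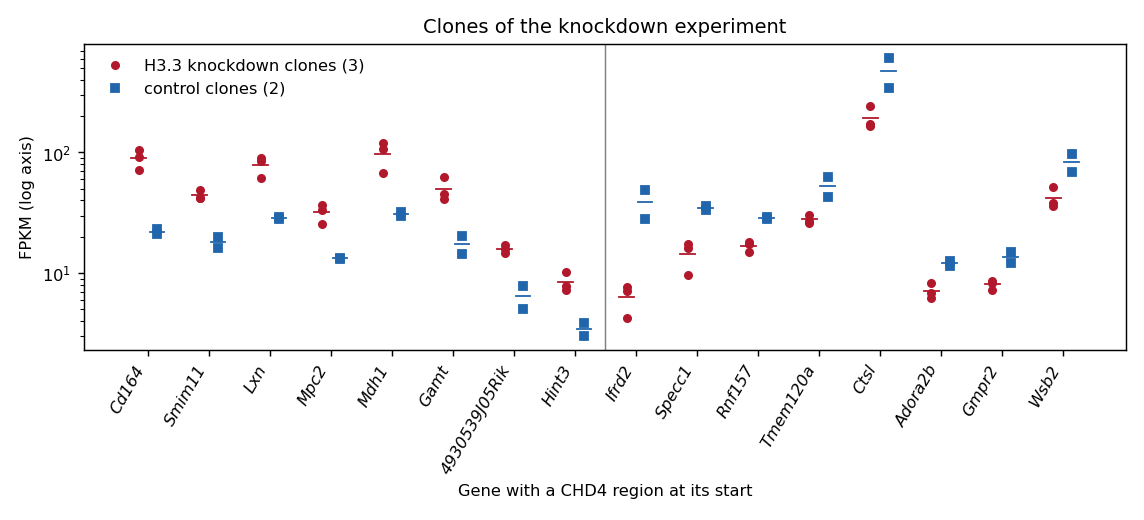
FPKM, on a log axis, of the 16 genes of smallest p among those with a CHD4 region at their start, 8 higher (left of the line) and 8 lower in the H3.3 knockdown. Red circles are the 3 knockdown clones, blue squares the 2 control clones and short lines their means; Ifrd2 stands at 4.24 to 7.72 in the knockdown clones against 28.2 and 49.3 in the control clones.

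Of the 20 listed genes with CHD4, 14 had overlapping clone values, 6 did not, and none was called. Against the 32.6% of all genes tested and 31.1% (285) of the 915 with CHD4, 6 of 20 is near the background. Rps6 had 2089, 1981 and 1632 FPKM in the knockdown clones, against 1970 and 1985 in the control clones. Nasp had 26.3, 65.5 and 46.2 FPKM in the knockdown clones, against 96.5 and 57.8 in the control clones. Rbbp4 had 55.9, 61.2 and 65.7 FPKM in the knockdown clones, against 81.1 and 65.9 in the control clones, and its groups did not overlap (log2 difference -0.26 ± 0.20, SE, adjusted p = 0.624 by limma). S100a4, a calcium-binding protein gene of fibroblasts, had 2471, 3337 and 3646 FPKM in the knockdown clones, against 1541 and 1672 in the control clones, a log2 difference of 0.95 ± 0.23 (SE, adjusted p = 0.442 by limma). Srf had 18.2, 28.4 and 20.5 FPKM in the knockdown clones, against 34.1 and 21.6 in the control clones. Of the NuRD subunit genes, Chd4 itself had 50.4, 58.5 and 59.1 FPKM in the knockdown clones, against 67.6 and 58.3 in the control clones, so the level of its transcript overlapped between the groups.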

How the data were processed

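Levels of the 11 ChIP libraries were deposited by the authors as log2(RPKM + 1) over 82893 regions, per the file headers. ChIP library sizes and read counts were estimated from these levels, by fitting the library size that turns them into whole reads. Among regions with reads, but under 100 of them, 100% then lay within 0.05 of a whole read. Peak coverage was deposited as the fraction of each region covered by a library's peaks, with counts of annotated gene features, per the file headers. Peak lists carry the authors' score per peak, and the sequential ChIP list a fold enrichment by MACS 2.1.1.20160309, per the file headers. FPKM values per gene were deposited for 5 poly-A RNA libraries. The submitters' processing notes name Bowtie, bedtools, MACS2, TopHat, Cufflinks and Cuffdiff with the mm9 build, and their settings were not stated there.

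A CHD4 region has a coverage above 0, and marks were assigned by an overlap of at least 1 bp. Gene starts lay within 1000 bp of a region. Starts came from the loci of the FPKM tables, with strand from RefSeq, for 18707 of 23951 symbols. Promoter sequences and strands are credited to RefSeq, GRCm38.p6. Intervals are exact (Clopper-Pearson, 95%, scipy 1.17.1). Estimated depth of the RNA libraries was 18.2 to 26.5 M fragments.

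The 3 knockdown clones were set against the 2 control clones by limma 3.58.1 in R 4.3.3 on log2(FPKM + 1), for genes with a mean of at least 1 FPKM over 5 libraries, with Benjamini-Hochberg adjustment. These fold changes understate the change of low genes. The fit was tested on simulated data. The labels name each RNA library as a clone and give no repeat cultures of a clone, so p-values measure the spread between these samples, which may be clonal.

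Named regions were the 10 of highest CHD4 level, the 10 promoter regions of highest level outside the top 0.1% of every library, the 5 promoter and 5 other regions with at least 30 reads of highest CHD4 level relative to the other subunits, and the 5 of highest subunit level without a CHD4 peak. Named genes were the 8 of smallest p in each direction, all NuRD genes and the 2 list members of highest CHD4 level, and lists with 5 or fewer members with CHD4 are named in full after their values were seen. The members and lists were chosen with earlier results of these data known. Python 3.11.15, pandas 2.3.3 and matplotlib 3.10.9 were used for tables and plots. Input libraries were not used here.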

Additional observations from a re-analysis of the deposited data

How the results depend on the processing

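Of 206 values recomputed under other settings, 158 counted as unchanged, 47 moved and 1 turned sign. Of the 158, 128 belonged to the 16 named knockdown genes, which counted as unchanged where the direction held and the gene was not called. Among the main results 30 were unchanged, 47 moved and 1 turned sign, so most of them depended on the setting. A share moved where it left the main value's 95% interval, the H3.3 difference where it moved by more than the SD between replicates, and a count where it changed by over 1.5 times. The log2 differences of the 16 named knockdown genes kept their direction in all 128 fits of theirs. These genes were chosen by p from the same clones and their groups did not overlap. Leaving out a clone could therefore not reverse their direction, and the kept direction is no separate support. With at least 0.5 of the region covered by CHD4 (420 regions), 17.4% lay at promoters, 14.5% had another subunit, 0.476% had H3.3 in both replicates, and 4.05%, 20.5% and 12.6% had H3K27ac, H3K4me3 and H3K9ac. The H3.3 difference then was -1.12, and 0.521% of expressed genes had CHD4 at the start. With regions of 300 to 2000 bp the shares in that order were 50.8%, 91.8%, 67.7%, 54.1%, 82.6% and 70%. With at least 20 CHD4 reads they were 48.4%, 96.7%, 89.3%, 70.4%, 87.6% and 77.1%. The H3.3 difference was then 0.50, against other-subunit regions without a read minimum. With another subunit required, a setting added after the data were seen, the promoter, H3.3, H3K27ac, H3K4me3 and H3K9ac shares were 48.0%, 78.2%, 64.0%, 86.1% and 74.4% and the H3.3 difference 0.37. With all CHD4 regions it was 0.26 at promoters and 0.061 elsewhere. With 2 or more other subunits required the partner share was 61.97%. Mark peaks over at least 50% of the region gave 8.92%, 65.0% and 50.4% for H3K27ac, H3K4me3 and H3K9ac, and peaks with a score of at least 100 gave 32.2%, 68.6% and 55.0%. Without chromosomes 4, 6, 11 and 15, also added after the data were seen, H3K27ac stood at 47.1% and the share of expressed genes with CHD4 at 7.91%. That share was 10.9% at a mean of at least 5 FPKM and 11.3% within 5 kb. Leaving out 1 H3.3 replicate gave H3.3 shares of 65.7% to 68.1%. With at least 0.5 of the region covered, 359 of the 420 regions held CHD4 alone and no H3.3 peak. The low partner and H3.3 shares there follow from that setting. The cause of the other shifts was not tested, other than that each setting counts other regions or peaks.

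Knockdown and control clones share the numbers 1 and 2 as names only. The correlations of their deviations were -0.25 for number 1 and -0.095 for number 2. With the number as a replicate block, limma called 0 genes (504 at an unadjusted p under 0.05), against 4 without it, and 23 genes with CHD4 were higher and 7 lower at an unadjusted p under 0.05. Without short RNA genes it called 0 (1230 at an unadjusted p under 0.05). Leaving out 1 clone gave 8 to 30 calls, where a lone control clone is assumed to vary like the knockdown clones. A pseudocount of 0.1, no filter, a minimum of 5 FPKM and quantile normalization gave 6, 6, 3 and 4 calls.

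Depth limits single regions, as 342 of 2017 CHD4 regions had under 10 reads, and 1 library per protein leaves the spread between CHD4 libraries unmeasured.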

Other observations

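CHD4 peaks were also found without H3.3. Of 6920 regions with 1 other subunit and no H3.3 peak in either replicate, 87 (1.26%, 1.01 to 1.55) had CHD4, against 2.00% (1.73 to 2.31) of 9292 regions with H3.3 peaks in both replicates. At 2 other subunits the shares were 5.77% without H3.3 (4.54 to 7.22) and 6.71% with it (6.06 to 7.41). At 3 they were 13.6% without H3.3 (10.4 to 17.4) and 12.5% with it (11.3 to 13.8), at 4 they were 34.2% (23.5 to 46.3) and 25.2% (22.5 to 28.1), and at 5 they were 43.8% (19.8 to 70.1) and 45.1% (38.1 to 52.2). The intervals overlapped at 2, 3, 4 and 5.

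The 4 regions in the top 0.1% of all 11 libraries, marks and H3.3 included, all held a CHD4 peak.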
